A study of Mus musculus with 12 samples.

Results

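Expression of 8 genes whose transcripts respond to temperature was examined in mouse liver: Cirbp and Rbm3, which encode cold-inducible RNA-binding proteins, and Hspa8, Hspa1b, Hsp90aa1, Hsp90ab1, Hsph1 and Dnajb1, which encode chaperones of the heat shock families. They were chosen by symbol from the 22322 gene symbols in the deposited tables, and the transcript row with the highest mean was taken for each. Read counts scaled to transcript length and sequencing depth (RPKM) were available for 12 livers. These came from wild-type (WT) mice and from mice with a conditional knockout of Bmal1 in the liver (KO), 3 of each at circadian times 0 h (CT0) and 12 h (CT12). The comparison asked whether a difference between CT0 and CT12 persisted without Bmal1.

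WT mice were Bmal1 flox/flox, with loxP sites around exon 8 of Bmal1 (Arntl in the tables), and no CRE was stated for them. KO mice came from breeding that line to one with CRE recombinase under a liver-specific promoter that was not named in the sources used here, so an effect of CRE itself cannot be told apart from that of losing BMAL1. The deletion concerned the liver, and the clocks of the rest of the animal were not targeted. The labels give the mice as C57BL/6 and 8 weeks old, and the methods of the study as C57BL/6J males of 8 to 12 weeks. After at least a week of 12 h of light and 12 h of darkness with free access to food and water, they were moved to constant darkness for the last days. CT0 marks when the lights would have come on, and each library was labelled as a separate mouse, although the protocol text attached to the samples speaks of 2 mice per genotype and time.

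In mammals the body temperature follows a daily rhythm that is set outside the liver. CIRBP and RBM3 are known to rise when cells are mildly cooled and to fall when they are warmed, and CIRBP is known to bind the transcript of Clock. Chaperones of the HSP70 (Hspa8, Hspa1b), HSP110 (Hsph1), HSP90 (Hsp90aa1, Hsp90ab1) and HSP40 (Dnajb1) families are known to move the other way, since warming releases heat shock factor 1 (HSF1), which binds inverted repeats of GAA in their promoters. In nocturnal animals such as mice, CT12 is the start of activity, when body temperature rises, and CT0 is the start of rest.

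Depth and labels were examined first. Depth recovered from the spacing of low values ranged from 11460000 to 19020000 reads per library. The targeted gene Arntl was between 15.7 and 16.4 RPKM in WT at CT0 and between 5.73 and 7.45 RPKM in KO at CT0, a fall of 1.21 on the log2 scale (adjusted p = 0.00058). At CT12 it was higher in KO, between 3.59 and 4.37 RPKM, than in WT, between 0.68 and 1.26 RPKM, and a value over a whole transcript does not show the loss of exon 8. Of 10 clock genes, 8 differed between the times in WT, beside 11.6% of all tested genes, and 3 in KO, beside 2.43%. The KO count was 1 without replicate 1 at CT0 of both genotypes, 1 with a pseudocount of 0.1 and 0 with no filter. With 1 RPKM required in every sample the counts were 2 in WT and 0 in KO, since only Nr1d2, Cry1 and Clock were then tested. The hepatocyte markers, 6 genes, summed to between 26820 and 52430 RPKM. Of 3 markers each, Cpa1 and Pnlip of the pancreas and Plin1 of fat were under 0.1 RPKM in every library. All 3 pancreas markers summed to at most 1.18 RPKM in any library, and all 3 fat markers to at most 0.257 RPKM. Whole liver was sequenced, so fewer cells of a type and less RNA per cell cannot be told apart.

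Values of the 8 genes were read against replicate 1 at CT0. In both genotypes it had the highest value of the 3 replicates for all 6 chaperones and the lowest for Cirbp and Rbm3. It did not stand apart from replicates 2 and 3 for every gene. In KO the 3 values were graded for Hspa8 (626, 445 and 270 RPKM) and for Hspa1b (1.68, 1.03 and 0.374 RPKM). In WT the Rbm3 values lay close together (26.7, 27.9 and 28.8 RPKM). Among the 10799 genes tested, replicate 1 was the highest at CT0 in both genotypes for 16.9% and the lowest in both for 13.5%. The time differences of the 8 genes are therefore given with and without these 2 libraries, and because they were singled out from these values, the calls made without them are a description and not separate evidence.

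Promoters of 4 of the 8 genes (Cirbp, Hspa1b, Hsph1 and Dnajb1, 7 windows) were in the table of RefSeq promoters on GRCm38.p6, and those of Rbm3, Hspa8, Hsp90aa1 and Hsp90ab1 were not. Each window held 250 bases before and 50 bases after an annotated start. Windows were searched on both strands for TCCCCGCC, an element described for the response of Cirbp to mild cold, and for the heat shock element pairs GAANNTTC and TTCNNGAA, which can overlap each other. Among all 32851 windows of this length, TCCCCGCC was in 5.38%, GAANNTTC in 7.86%, TTCNNGAA in 8.52% and either pair in 15.1%.

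The 250 bases before the start are shown for Cirbp (chr10:80167589-80167838, plus strand), Hspa1b (chr17:34959239-34959488, minus strand) and Hsph1 (chr5:149636337-149636586, minus strand). At CT0, replicate 1 over the mean of replicates 2 and 3 was 3.17 in WT and 1.28 in KO for Hsph1. It was 1.59 in WT and 2.39 in KO for Hspa1b. Dnajb1, with 1.33 in WT and 1.98 in KO, is not shown. Capitals mark the cold element of Cirbp and the heat shock element pairs of Hspa1b and Hsph1.
Cirbp: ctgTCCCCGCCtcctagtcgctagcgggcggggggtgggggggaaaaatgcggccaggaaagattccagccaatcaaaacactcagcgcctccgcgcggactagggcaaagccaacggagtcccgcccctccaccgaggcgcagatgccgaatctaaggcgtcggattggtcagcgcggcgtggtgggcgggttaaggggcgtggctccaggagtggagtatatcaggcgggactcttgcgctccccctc
Hspa1b: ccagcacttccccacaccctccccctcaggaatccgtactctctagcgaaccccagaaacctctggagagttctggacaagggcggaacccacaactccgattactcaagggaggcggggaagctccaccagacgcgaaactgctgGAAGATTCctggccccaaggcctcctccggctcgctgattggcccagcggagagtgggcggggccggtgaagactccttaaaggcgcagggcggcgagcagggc
Hsph1: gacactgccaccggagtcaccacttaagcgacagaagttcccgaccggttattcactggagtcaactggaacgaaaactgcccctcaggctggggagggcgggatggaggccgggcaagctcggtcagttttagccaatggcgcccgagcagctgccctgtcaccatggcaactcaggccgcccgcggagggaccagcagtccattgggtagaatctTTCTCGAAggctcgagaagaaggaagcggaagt
The pair in Hspa1b began 104 bases before its start and that in Hsph1 33 bases before its start. Hsph1 held 2 more pairs after this start, TTCTGGAA from base 37 and GAAAGTTC from base 42, which share 3 bases. The cold element lay 247 bases before the start of Cirbp, and its reverse complement GGCGGGGA was also found 137 bases before the start of Hspa1b and 35 bases after 1 of the starts of Dnajb1. No heat shock element pair was found in the Cirbp and Dnajb1 windows, which says only that these letters are not there. These matches are a description of sequence, since no binding was measured. The E-box CACGTG, the letters that BMAL1 and CLOCK are known to bind, was in the Hsph1 windows, as in 7.15% of all windows, and in no other window of these genes.

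**Figure D1:**
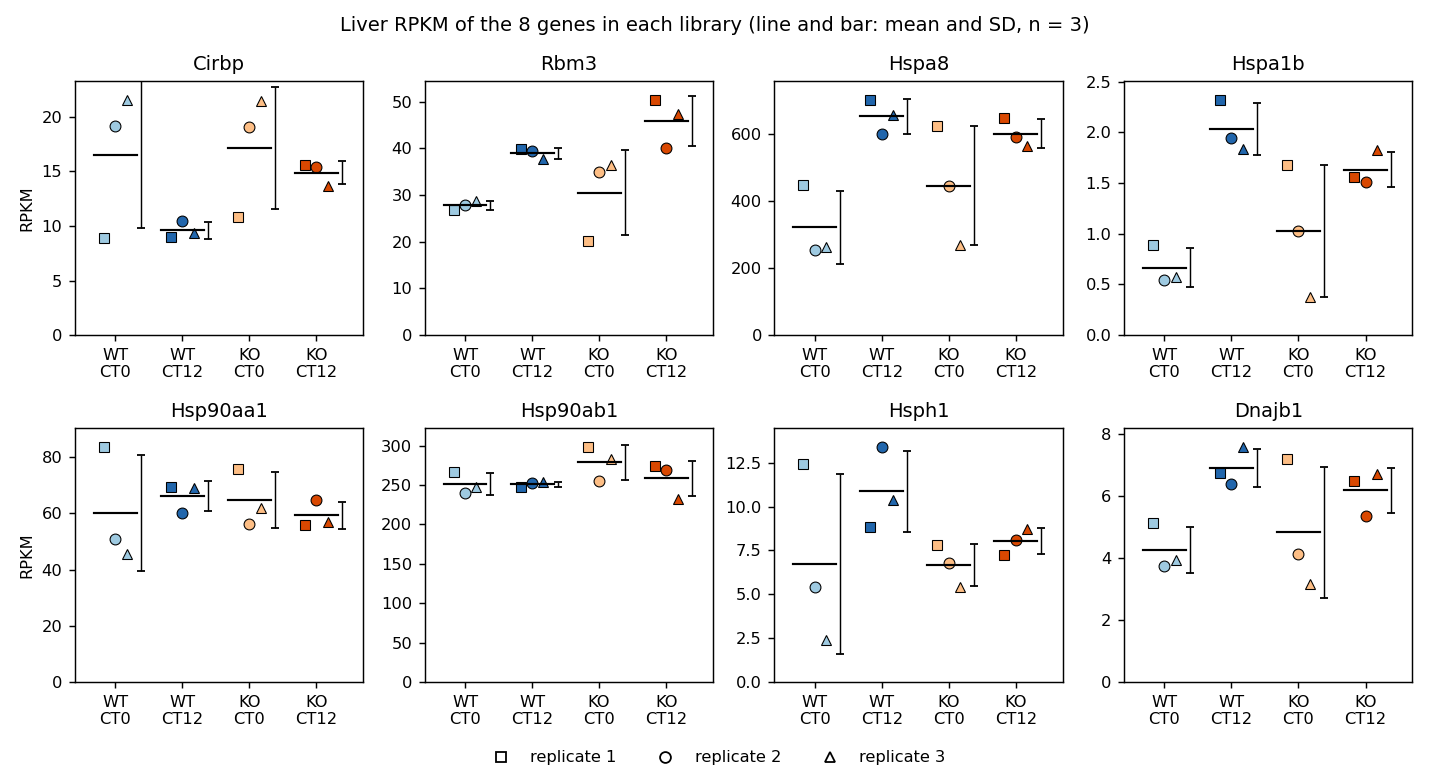
RPKM of the 8 genes in each of the 12 libraries, on linear axes that start at 0. Squares, circles and triangles are replicates 1, 2 and 3, lines are means and bars are SD (n = 3). In both genotypes the CT0 square is the lowest CT0 point for Cirbp and Rbm3 and the highest for the other 6 genes.

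In the row used, Cirbp was lower in all 3 WT livers at CT12 than in 2 of the 3 at CT0. This difference passed the test only without replicate 1 at CT0. In WT it measured 8.88, 19.1 and 21.5 RPKM at CT0 and 8.94, 10.5 and 9.34 RPKM at CT12. Replicate 1 at CT0 lay below every WT value at CT12 and the other 2 above all of them, so the groups overlapped in this row. In both other rows of Cirbp, every WT value at CT0 lay above every WT value at CT12. The second highest row had 8.95, 14.4 and 17.2 RPKM at CT0 and 6.69, 7.51 and 7.33 RPKM at CT12. In KO the row used measured 10.8, 19.1 and 21.5 RPKM at CT0 and 15.6, 15.4 and 13.7 RPKM at CT12, with the CT12 values inside the range of CT0. The time difference in log2(RPKM + 1) was -0.64 ± 0.28 (SE) in WT (95% interval -1.26 to -0.02, adjusted p = 0.17) and -0.14 ± 0.28 in KO (adjusted p = 0.83). Without the 2 CT0 libraries it was -1.01 ± 0.11 in WT (adjusted p = 0.00041) and -0.42 ± 0.11 in KO (adjusted p = 0.085). The test of the difference between those time differences gave 0.50 ± 0.40 with all libraries (adjusted p = 0.67) and 0.59 ± 0.15 without them (unadjusted p = 0.003, adjusted p = 0.14). A smaller time difference of Cirbp in KO was thus not shown over all genes tested.

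At CT12 the KO values of Cirbp, 13.7 to 15.6 RPKM, lay above the WT values, 8.94 to 10.5 RPKM, with no overlap. Means were 14.9 ± 1.04 RPKM in KO and 9.58 ± 0.790 RPKM in WT (SD, n = 3), a ratio of 1.55. The difference of 0.58 ± 0.28 in log2(RPKM + 1) missed the threshold when all 12 libraries shared an estimate of the spread (95% interval -0.04 to 1.21, adjusted p = 0.23), which included the wide CT0 values. It passed in a fit of the 6 CT12 libraries alone, and without the 2 CT0 libraries (adjusted p = 0.0036). At CT0 the genotypes had means of 16.5 ± 6.73 RPKM in WT and 17.1 ± 5.60 RPKM in KO (SD, n = 3), and their values overlapped. Rbm3, Hspa1b and Hsph1 also had no overlap between genotypes at CT12, with Rbm3 higher in KO and Hspa1b and Hsph1 lower. How many of all tested genes lacked such an overlap was not counted.

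Rbm3 was higher at CT12 than at CT0 in both genotypes, opposite in direction to the other cold-inducible gene. WT livers measured 26.7, 27.9 and 28.8 RPKM at CT0 and 39.8, 39.4 and 37.6 RPKM at CT12. KO livers measured 20.1, 34.9 and 36.5 RPKM at CT0 and 50.4, 40.0 and 47.3 RPKM at CT12. In neither genotype did the times overlap, and the lowest of all 12 values was that of KO replicate 1 at CT0. Means were 1.40-fold higher at CT12 in WT and 1.51-fold higher in KO (38.9 against 27.8 and 45.9 against 30.5 RPKM), and the time difference was 0.47 ± 0.18 in WT (adjusted p = 0.11) and 0.61 ± 0.18 in KO (adjusted p = 0.092) in log2(RPKM + 1). Averaged over both genotypes it was 0.54 ± 0.13 and passed the test (95% interval 0.27 to 0.82, adjusted p = 0.013). The time difference in KO minus that in WT was 0.14 ± 0.25 (95% interval -0.41 to 0.69, adjusted p = 0.88), and it was -0.10 without the 2 CT0 libraries. Without them the time difference was 0.45 ± 0.10 in WT (adjusted p = 0.024) and 0.35 ± 0.10 in KO (adjusted p = 0.12).

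Hspa8, the constitutive HSP70 of the cytosol, was the most abundant of the 8 genes in every group by RPKM, which is scaled to transcript length. It measured 448, 256 and 264 RPKM in WT at CT0 and 703, 601 and 657 RPKM in WT at CT12. Every CT12 value lay above every CT0 value, and the mean rose 2.03-fold. The difference of 1.06 ± 0.27 in log2(RPKM + 1) passed the test (95% interval 0.48 to 1.65, adjusted p = 0.025) and was 1.33 ± 0.18 without the 2 CT0 libraries (adjusted p = 0.0015). The call was lost with no filter (adjusted p = 0.054) and when WT CT0 replicate 2, WT CT0 replicate 3, WT CT12 replicate 1 or WT CT12 replicate 3 was left out (adjusted p from 0.072 to 0.092). KO livers measured 626, 445 and 270 RPKM at CT0 and 649, 591 and 566 RPKM at CT12, so that replicate 1 at CT0 lay within the CT12 values. The KO difference was 0.51 ± 0.27 (95% interval -0.07 to 1.09, adjusted p = 0.31) with all libraries and 0.79 ± 0.18 without the 2 CT0 libraries (adjusted p = 0.059), and it was 0.19 without KO CT0 replicate 3. KO minus WT of these differences was -0.56 ± 0.38 (adjusted p = 0.61).

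Hspa1b, a strongly heat-inducible HSP70, was the lowest of the 8 genes. It measured 0.887, 0.544 and 0.570 RPKM in WT at CT0 and 2.32, 1.94 and 1.84 RPKM in WT at CT12, a 3.05-fold rise of the mean with no overlap. The difference of 0.87 ± 0.20 passed the test (adjusted p = 0.017), and it was 1.50 with a pseudocount of 0.1 in place of 1 (adjusted p = 0.029) and 0.96 ± 0.17 without the 2 CT0 libraries (adjusted p = 0.0074). The call was lost without WT CT0 replicate 2, WT CT0 replicate 3 or WT CT12 replicate 1 (adjusted p from 0.059 to 0.063). KO livers measured 1.68, 1.03 and 0.374 RPKM at CT0 and 1.56, 1.51 and 1.83 RPKM at CT12, and the times overlapped through replicate 1 at CT0. The KO difference was 0.43 ± 0.20 (95% interval -0.01 to 0.86, adjusted p = 0.26) and the difference between genotypes -0.44 ± 0.28 (adjusted p = 0.58). Without the 2 CT0 libraries the KO difference was 0.66 ± 0.17 (adjusted p = 0.089). Leaving out KO CT0 replicate 3 alone gave 0.17. Between 12 and 105 reads lay behind these values. The transcript used was identical to that of the neighbouring paralog Hspa1a at 2153 of 2169 aligned bases (99.3%), so reads of the 2 genes may not have been separated, and Hspa1a, at 0.459 RPKM or less in each library, was below the filter.

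Dnajb1, the HSP40 partner that activates HSP70, measured 5.12, 3.74 and 3.95 RPKM in WT at CT0 and 6.74, 6.38 and 7.58 RPKM at CT12, with no overlap. In KO it measured 7.20, 4.13 and 3.16 RPKM at CT0 and 6.50, 5.34 and 6.69 RPKM at CT12, where replicate 1 at CT0 lay above every CT12 value. The time difference was 0.59 ± 0.20 in WT (adjusted p = 0.084), 0.35 ± 0.20 in KO (adjusted p = 0.36) and 0.47 ± 0.14 over both genotypes (adjusted p = 0.044), a call that was lost with no filter and in most fits that left out 1 library. Without the 2 CT0 libraries it was 0.70 ± 0.13 in WT (adjusted p = 0.01) and 0.63 ± 0.13 in KO (adjusted p = 0.051). The KO value fell to 0.14 when KO CT0 replicate 3 was omitted. Hsph1, an HSP110 that exchanges nucleotide on HSP70, showed the widest WT spread at CT0 relative to its mean. It measured 12.4, 5.41 and 2.42 RPKM in WT at CT0 and 8.82, 13.4 and 10.4 RPKM at CT12, so that replicate 1 at CT0 lay inside the CT12 range. In KO it stayed between 5.41 and 8.75 RPKM in all 6 libraries. Its time difference was 0.82 ± 0.36 in WT (adjusted p = 0.17) and 0.24 ± 0.36 in KO (adjusted p = 0.76), and without the 2 CT0 libraries 1.32 ± 0.25 in WT (adjusted p = 0.0094) and 0.35 ± 0.25 in KO (adjusted p = 0.48). Leaving out WT CT0 replicate 3 instead gave 0.34 in WT.

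The HSP90 genes gave the smallest time differences of the chaperones. Hsp90aa1, the inducible form, measured 83.5, 50.9 and 45.4 RPKM in WT at CT0 and 69.4, 60.0 and 69.0 RPKM at CT12. Its KO values were 75.8, 56.2 and 62.0 RPKM at CT0 and 56.0, 64.6 and 57.0 RPKM at CT12. Replicate 1 at CT0 was the highest of the 6 libraries in each genotype, and the times overlapped in both. The time difference was 0.19 ± 0.19 in WT (95% interval -0.22 to 0.60) and -0.12 ± 0.19 in KO (95% interval -0.53 to 0.29). Without the 2 CT0 libraries it was 0.45 ± 0.11 in WT (adjusted p = 0.027) and 0.00 ± 0.11 in KO (adjusted p = 1), and without WT CT0 replicate 3 it was 0.02 in WT. Hsp90ab1, the constitutive form, stayed between 232 and 298 RPKM in all 12 libraries, with time differences of 0.00 ± 0.09 in WT and -0.11 ± 0.09 in KO and 95% intervals of -0.19 to 0.20 and -0.31 to 0.09, and with 0.04 and -0.06 without the 2 CT0 libraries.

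Across the 8 genes, 2 rose with time in WT (Hspa8 and Hspa1b) and none fell, beside 11.6% of all tested genes called in either direction and 3.71% called higher. At an unadjusted p under 0.05 the WT count was 6, beside 26.9% of all tested genes. In KO no gene of the 8 was called by limma, beside 2.43% of all tested genes, and at an unadjusted p under 0.05, where 19.9% of all tested genes passed, it was Rbm3 alone, also in an unmoderated model. Over both genotypes 4 genes rose (Rbm3, Hspa8, Hspa1b and Dnajb1), beside 16.6% called in either direction and 6.08% called higher. The median time difference of the 8 genes was 0.53 in WT and 0.30 in KO, and that of all tested genes was -0.07 and -0.00. These genes were chosen for their response to temperature with earlier results of these data known, so the counts describe them and do not test the group.

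The difference between genotypes was tested directly. The time by genotype interaction was called for none of the 8, beside 1.49% of all tested genes, and none passed at an unadjusted p under 0.05 in limma, where 12.3% of all tested genes did, or in the unmoderated model. Its value was below 0, a time difference lower in KO than in WT, for the 6 chaperones, from -0.57 for Hsph1 to -0.11 for Hsp90ab1. It was above 0 for Cirbp and Rbm3. No gene of the 8 was called between KO and WT at CT0, where 1.86% of all tested genes were called, or at CT12, where 10.5% were called. None passed at an unadjusted p under 0.05 either, beside 14.2% of all tested genes at CT0 and 24.9% at CT12. The 95% interval of the interaction ran from -1.38 to 0.27 for Hspa8, from -1.05 to 0.18 for Hspa1b and from -1.69 to 0.54 for Hsph1. With 3 mice a group, each of these intervals held both a time difference that was equal in the genotypes and the loss of the whole WT difference in KO.

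**Figure D2:**
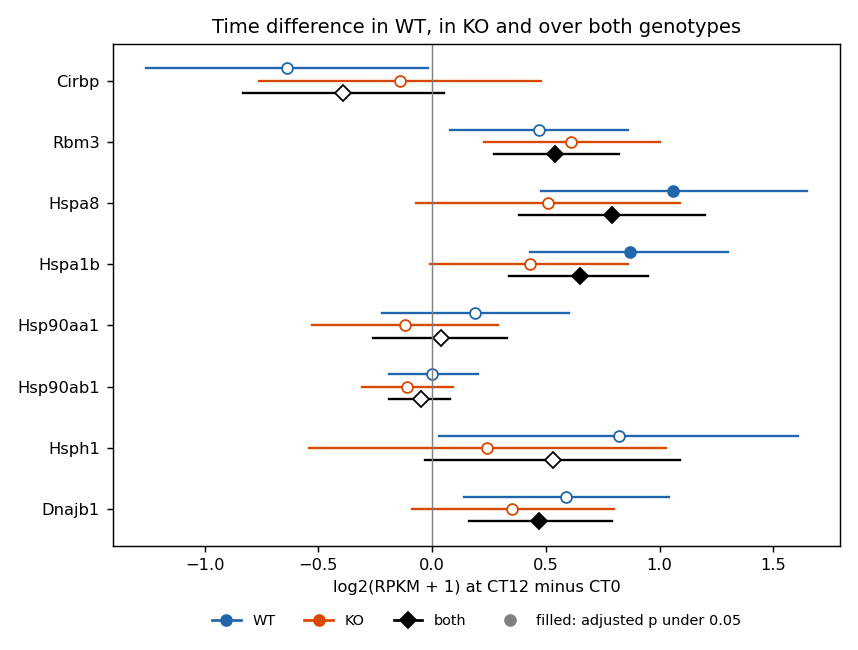
Difference between CT12 and CT0 in log2(RPKM + 1) for each gene in WT, in KO and averaged over both, with 95% intervals from limma. Filled symbols mark an adjusted p under 0.05: Hspa8 and Hspa1b in WT, none in KO, and Rbm3, Hspa8, Hspa1b and Dnajb1 over both. KO intervals overlap those of WT for every gene.

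With replicate 1 at CT0 left out in both genotypes, 7 of the 8 genes were called between the times in WT, all but Hsp90ab1, beside 9.05% of all tested genes. In KO the count stayed at 0, beside 1.49%, with 5 genes at an unadjusted p under 0.05 (Cirbp, Rbm3, Hspa8, Hspa1b and Dnajb1), a level that 18.6% of all tested genes passed. Over both genotypes 6 were called, beside 14.1%. Cirbp alone differed between genotypes at CT12, beside 11.7%. The interaction was again called for none, beside 1.05% of all tested genes, with 3 genes at an unadjusted p under 0.05, Cirbp, Hsp90aa1 and Hsph1, a level that 11.2% passed. The share of all genes called in WT fell while that of the 8 genes grew. Since the 2 libraries were singled out from values of the 8 genes, this contrast is not evidence about them. Each KO and WT mean at CT0 then rested on 2 mice.

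**Figure D3:**
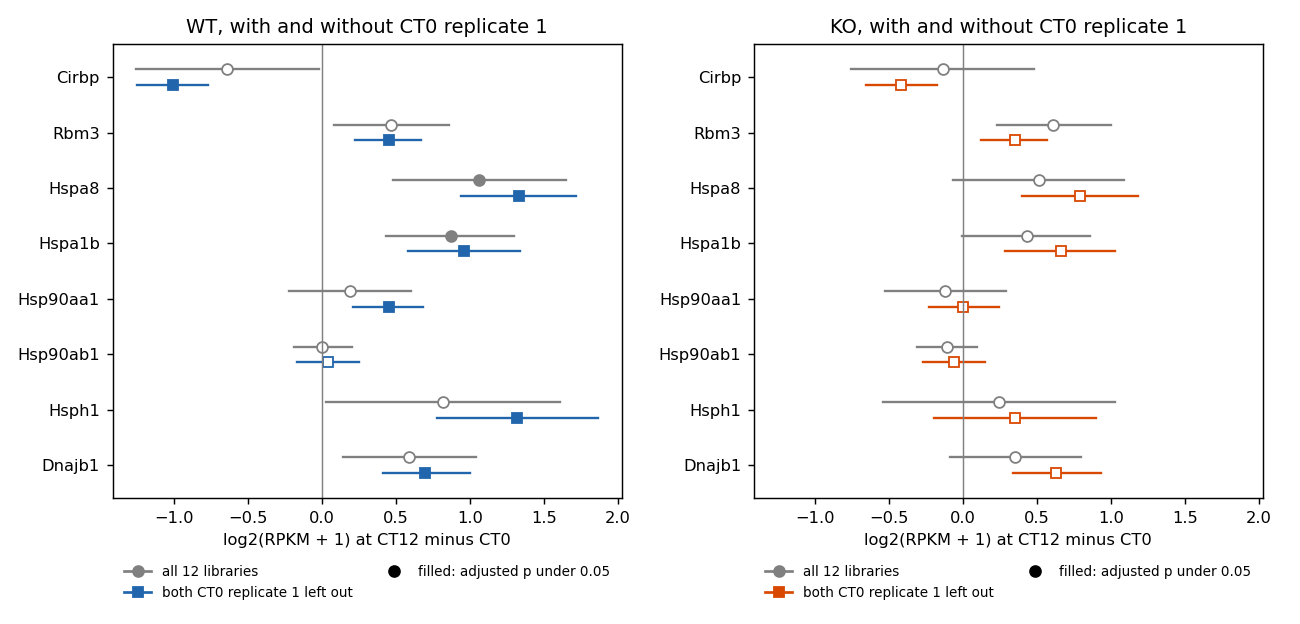
Time differences in log2(RPKM + 1) with 95% intervals in WT (left) and KO (right), with all 12 libraries (grey circles) and with replicate 1 at CT0 of both genotypes left out (coloured squares). Filled symbols mark an adjusted p under 0.05. In WT 2 genes are filled with all libraries and 7 without those 2, and in KO none is filled in either fit.

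The departure of replicate 1 at CT0 was largest for Hsph1 in WT and for Hspa1b in KO. In WT its value over the mean of replicates 2 and 3 was 3.17 for Hsph1, 1.73 for Hsp90aa1, 1.73 for Hspa8, 1.59 for Hspa1b, 1.33 for Dnajb1 and 1.09 for Hsp90ab1, and it was 0.437 for Cirbp and 0.943 for Rbm3. In KO it ran from 1.11 for Hsp90ab1 to 2.39 for Hspa1b among the chaperones, and was 0.532 for Cirbp and 0.563 for Rbm3. Of 18 other genes induced by heat through HSF1 that were tested, replicate 1 was the highest at CT0 in both genotypes for 11, Dnaja1, Chordc1 and Stip1 among them, and the lowest in both for none. The same held for 7 of the 8 subunits of the TRiC chaperonin, which folds actin and tubulin, and for 2 of 15 other HSP70 proteins and partners. Of 6 immediate early genes, 3 (Ier2, Dusp1 and Zfp36) were lowest there in both genotypes.

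The mean correlation of replicate 1 at CT0 with the other replicates of its group was 0.9860 in WT and 0.9799 in KO, and the 12 libraries ranged from that KO value to 0.9887. Over all tested genes, the deviations of the WT and the KO replicate 1 at CT0 from their group means correlated by 0.031. The depth of these 2 libraries was 18900000 and 14900000 reads. The Arntl values, 16.4 and 5.92 RPKM, lay with those of the other CT0 libraries of each genotype. Of the 10 clock genes, Per2 was highest and Nr1d1 and Dbp were lowest in replicate 1 in both genotypes, with 1.50 RPKM against a mean of 1.12 RPKM for Per2, 2.04 against a mean of 4.31 RPKM for Nr1d1 and 0.661 against 1.22 RPKM for Dbp in WT. Hspa5, the HSP70 of the endoplasmic reticulum, was at 605 RPKM in the WT library and between 208 and 302 RPKM in the other 11, and the 4 red blood cell markers summed to 327 RPKM there, the highest of the 12. Their part in the values of the 8 genes was not tested.

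**Figure D4:**
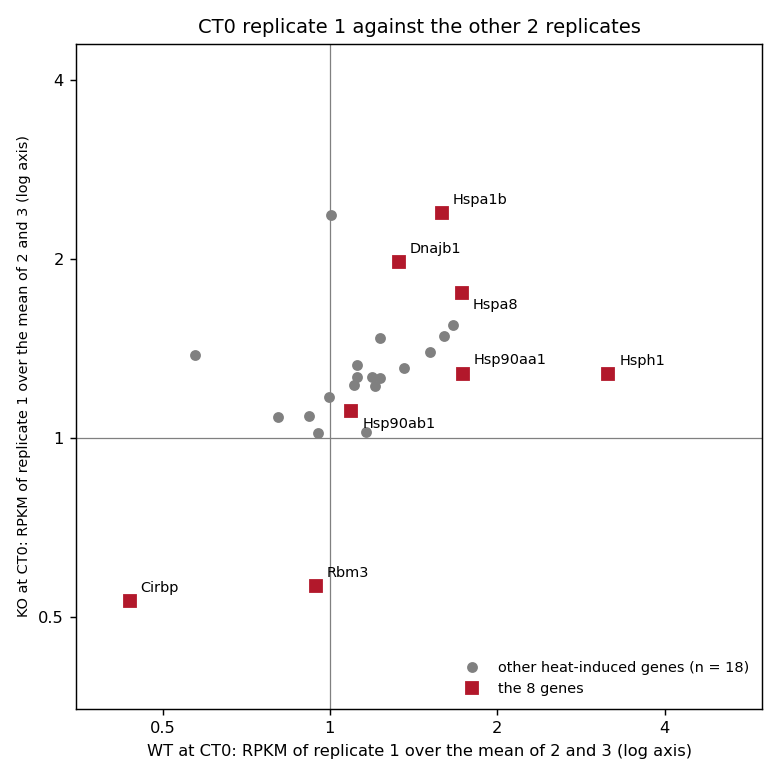
RPKM of replicate 1 at CT0 over the mean of replicates 2 and 3, in WT (horizontal) and KO (vertical), both on log axes. Squares are the 8 genes and grey points 18 other heat-induced genes. The 6 chaperones lie above 1 on both axes, and Cirbp and Rbm3 lie below 1 on both.

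Other transcript rows of the same symbols were compared, since the row used was the highest by mean and often a short one. The tables held 3 rows for Cirbp, 6 for Rbm3, 4 for Hspa8, 2 for Hspa1b, 5 for Hsp90aa1, 4 for Hsp90ab1, 5 for Hsph1 and 1 for Dnajb1. The Cirbp row (ENSMUST00000154726, 423 bases) began at 79628730 on chromosome 10 of NCBIM37, upstream of its other rows at 79630523 and 79630585, so the promoter window shown need not be the one of that row. The row of Hsph1 (ENSMUST00000132412, 661 bases, chr5:150432559-150438951) rested on 27 to 155 reads and that of Hsp90ab1 (ENSMUST00000165127, 572 bases, chr17:45705967-45710202) on 1816 to 2876 reads. The second highest row gave time differences in WT of -0.78 for Cirbp, 0.48 for Rbm3, 1.06 for Hspa8, 0.67 for Hspa1b and 0.85 for Hsph1, each in the direction of the first. For Cirbp its limma adjusted p was 0.057 with all libraries, beside 0.17 for the row used. The remaining rows used were ENSMUST00000115619 of Rbm3 (969 bases, chrX:7717910-7722805), ENSMUST00000117557 of Hspa8 (2019 bases, chr9:40609385-40613283), ENSMUST00000172753 of Hspa1b (2803 bases, chr17:35093381-35096183), ENSMUST00000021698 of Hsp90aa1 (2852 bases, chr12:111929238-111934499) and ENSMUST00000005620 of Dnajb1 (2263 bases, chr8:86132074-86135801). All 8 were annotated as protein-coding. Rows of a gene share reads and are not independent.

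Other genes of the heat shock pathway were counted from lists, beside 11.6% of all tested genes called over time in WT, 2.43% in KO and 10.5% between genotypes at CT12. None of 4 genes for heat shock factors and their binding protein (Hsf1, Hsf2, Hsf4 and Hsbp1) was called in any comparison with all libraries, 1 (Hsf4, higher at CT12) was called over time in WT without the 2 CT0 libraries, and Hsf1 stayed between 3.85 and 5.10 RPKM in all 12. Of 18 other HSF1-induced genes, 2 rose and 2 fell between the times in WT (5 called without the 2 CT0 libraries), 2 fell in KO (1 called without them), and none was called for the interaction. Dnaja1, an HSP40 that works with Hspa8, rose by 0.75 ± 0.21 in WT (adjusted p = 0.037), from 64.7 to 122 RPKM at CT0 to 134 to 159 RPKM at CT12. Dnajb4, another HSP40, rose by 0.43 ± 0.12 in WT (adjusted p = 0.04). Both WT calls were lost with no filter and in several fits that left out 1 WT library, and both genes passed over the 2 genotypes together, with 0.60 for Dnaja1 and 0.40 for Dnajb4. Serpinh1, the collagen chaperone, fell by 0.97 in WT and also fell in KO (95% interval -1.24 to -0.76). Markers of stellate cells, which make collagen, summed to 118 to 158 RPKM at CT0 and 88.1 to 102 RPKM at CT12 in WT. In KO they summed to 145 to 177 RPKM at CT0 and 112 to 143 RPKM at CT12. Marker sums of liver endothelial cells, Kupffer cells, lymphocytes and hepatocytes were also lower at CT12 in WT, without overlap. The part of these cells in the fall of Serpinh1 was not tested. Hspa4l, an HSP110 like Hsph1, fell by 0.66 in KO (adjusted p = 0.037), and this call was lost without the 2 CT0 libraries (-0.49, adjusted p = 0.059).

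Hspb1, a small heat shock protein, was the HSF1-induced gene that differed between genotypes. KO minus WT was -1.87 ± 0.28 at CT0 and -1.24 ± 0.28 at CT12 (adjusted p = 0.0068 and 0.016), with 6.04 to 12.4 RPKM in WT and 1.09 to 2.08 RPKM in KO at CT0. The call at CT12 was lost without KO CT12 replicate 1, WT CT12 replicate 1 or WT CT12 replicate 2 (adjusted p from 0.054 to 0.06). Bile duct markers moved with genotype, from 27.2 to 64.8 RPKM in WT to 88.4 to 152 RPKM in KO, and hepatocyte markers from 38050 to 52430 RPKM in WT to 26820 to 35350 RPKM in KO; their part in this difference and in that of Cirbp at CT12 was not tested. Of 15 other HSP70 proteins and partners, Dnaja2 rose by 0.43 and Dnajb6 by 0.75 in WT and none was called in KO. At CT12 Dnajb6 was lower in KO than in WT (KO minus WT -0.62, adjusted p = 0.0078), and its interaction (-0.79, adjusted p = 0.051) was called without the 2 CT0 libraries (-0.92, adjusted p = 0.044) and after the libraries were quantile normalized (-0.82, adjusted p = 0.047). Of 9 HSP90 partners, Fkbp5, a co-chaperone of steroid receptors that glucocorticoids are known to induce, rose by 2.12 ± 0.29 in WT (adjusted p = 0.00075). In KO its rise of 1.12 ± 0.29 was not called (adjusted p = 0.066), with 4.38 to 5.61 RPKM at CT0 and 7.29 to 18.3 RPKM at CT12. That rise passed with summed rows and without KO CT12 replicate 2 or WT CT0 replicate 1 (adjusted p from 0.035 to 0.046). The interaction of Fkbp5 was not called (-0.99, adjusted p = 0.34). Tomm34 fell by 0.36 in WT (adjusted p = 0.035). At CT12 its KO minus WT difference was 0.36 (adjusted p = 0.036), and both calls were lost with no filter, with quantile normalization and with a replicate block (adjusted p from 0.055 to 0.099). At CT12 Fkbp5 was lower in KO (KO minus WT -1.38 ± 0.29, adjusted p = 0.0097), with 30.4 to 32.9 RPKM in WT and 7.29 to 18.3 RPKM in KO. Of 6 immediate early genes that were tested, Egr1 fell by 1.17 in WT and none was called in KO. The Egr1 call was lost without the 2 CT0 libraries (-1.22, adjusted p = 0.054) and without WT CT0 replicate 2, WT CT12 replicate 1 or WT CT12 replicate 2 (adjusted p from 0.063 to 0.086), and Egr1 was not tested with 1 RPKM required in every sample.

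The patterns of Cirbp and Hsp90aa1 over the 4 group means were matched to those of other tested genes. The measure was the root mean square distance of centred log2(RPKM + 1). All genes chosen at the start for their response to temperature were left out of this search. The nearest to Cirbp were Capn2 (distance 0.008), Etv6 (0.009), Zc3hc1 (0.016), Triobp (0.016) and 4932438A13Rik (0.023). Capn2, for example, had means of 17.9 RPKM in WT at CT0, 11.2 RPKM in WT at CT12, 19.2 RPKM in KO at CT0 and 17.2 RPKM in KO at CT12. The nearest to Hsp90aa1 were Ndufs1 (0.005), Eif4g1 (0.010), Fchsd2 (0.012), Shpk (0.013) and AI317395 (0.013). Chaperones among the chosen genes could not be listed, so their absence is not a result. Neither list held any other chaperone, and with 4 means such a distance describes a shape only.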

How the data were processed

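Total RNA of 12 mouse livers (4 groups of 3) was extracted with Trizol, and libraries were prepared with the TruSeq RNA kit v2. The authors deposited 1 table per sample of RPKM values for 46585 Ensembl transcripts. The submitters' processing notes name TopHat2, bedtools 2.19.1 and mm9 without their roles, and how reads of several transcripts or paralogs were counted is not given in the sources used here. The 8 genes and all lists were chosen with earlier results of these data known. For each symbol the row with the highest mean was used. GENCODE vM1 on NCBIM37, the same assembly as mm9, held 95.5% of the rows and gave lengths. Read depth was recovered from RPKM steps (94.9% to 95.7% of low values within 0.02 of a whole step).

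Genes averaging 1 RPKM or more in any group (10799) were fitted as log2(RPKM + 1) with 1 mean per group (limma 3.58.1 in R 4.3.3, lmFit and eBayes with trend), and p-values were adjusted by Benjamini-Hochberg over these genes at a threshold of 0.05. All 8 genes passed the filter. Differences are on that scale and understate changes of low genes. The SE and 95% intervals are limma's. The limma p-values set each difference against the spread between these samples, pooled over the groups and moderated over genes. The script was tested on simulated data. Genes were named by list: the 8 genes, called genes of 7 lists (76 genes), and the 5 genes nearest in pattern to Cirbp and Hsp90aa1. One listed gene is counted with its list but not reported here. Alternatives were a pseudocount of 0.1, other filters, quantile normalization, summed rows, the second highest row, an unmoderated model, a replicate block, a fit of only the 6 samples compared, and omission of single samples. Leaving out both CT0 replicates 1 was chosen after seeing the data. Promoters came from RefSeq (GRCm38.p6), and Hspa1a was aligned to Hspa1b with blastn 2.17.0. Tables were joined with pandas 2.3.3 and drawn with matplotlib 3.10.9 under Python 3.11.15.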

Additional observations from a re-analysis of the deposited data

Results flagged for a closer look

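Among the named genes, 1 outside the clock list differed in its time difference between genotypes by the interaction test. Tcp1, a subunit of the TRiC chaperonin, had a KO minus WT interaction of -0.56 ± 0.11 in log2(RPKM + 1) (limma, adjusted p = 0.035). It measured 50.4, 49.3 and 49.4 RPKM in WT at CT0 and 67.4, 64.2 and 67.4 RPKM at CT12, a rise of 0.41. In KO it measured 58.1, 49.6 and 50.4 RPKM at CT0 and 49.4, 44.3 and 48.4 RPKM at CT12. The call was lost when the rows of a symbol were summed (adjusted p = 0.057), when replicate 1 at CT0 was left out in both genotypes (adjusted p = 0.086), and in 11 of the 12 fits that left out 1 library. The other 7 subunits were not called for it. Groups of 3 are too small for a test of single libraries that stand apart.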

How the results depend on the processing

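The count of the 8 genes called between the times in WT, 2 with all libraries, was 1 with 1 RPKM required in every sample (Hspa8, since Hspa1b was then not tested), 1 with no filter (Hspa1b), 4 with only the 6 samples compared, 4 in the unmoderated model with unadjusted p-values, 7 without both CT0 replicates 1, and 0 to 4 when single libraries were left out. It was 0 without WT CT0 replicate 2, WT CT0 replicate 3 or WT CT12 replicate 1, 1 without WT CT12 replicate 3 (Hspa1b), and 4 without WT CT0 replicate 1 or KO CT0 replicate 1. In KO it was 1 in the unmoderated model (Rbm3) and 0 in all other settings. At CT12 KO and WT differed for 1 gene (Cirbp) with only the 6 samples compared and without both CT0 replicates 1. Over both genotypes the count was 3 to 6 when single libraries were left out, and Dnajb1 was lost in most of these. The interaction count was 0 in every setting.

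With the replicate number as a replicate block the counts were again 2 in WT, 0 in KO and 4 over both genotypes. Deviations of libraries with the same number correlated by 0.008 on average (-0.066 to 0.139) and those with other numbers by -0.004, so the numbers were not taken as pairs.

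Directions turned for values that were not called. Without both CT0 replicates 1, KO minus WT at CT0 was -0.0048 for Cirbp and -0.07 for Dnajb1, the Rbm3 interaction was -0.10 and the Hsp90aa1 difference in KO was 0.0015. With the second highest row, Cirbp at CT0 gave -0.03 and Hsp90aa1 over both genotypes -0.02, and with summed rows they gave -0.01 and -0.0011. Leaving out single libraries gave -0.42 to 0.04 for Cirbp over time in KO, -0.29 to 0.36 for Cirbp between genotypes at CT0, -0.13 to 0.29 for the Rbm3 interaction, -0.06 to 0.35 for Rbm3 at CT0, -0.21 to 0.0015 for Hsp90aa1 over time in KO, -0.05 to 0.17 for Hsp90aa1 over both genotypes, -0.02 to 0.41 for Hsp90aa1 at CT0, -0.03 to 0.04 for Hsp90ab1 over time in WT, -0.01 to 0.11 for Hsp90ab1 at CT12, -0.28 to 0.70 for Hsph1 at CT0, -0.45 to 0.04 for the Dnajb1 interaction and -0.18 to 0.31 for Dnajb1 at CT0. Of all values of single genes under the alternatives, 960 kept direction and side of the threshold, 21 passed it only there, 19 lost it and 28 turned. The cause was not tested.

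The calls in WT rest on 3 mice a group, Hspa1b on 12 to 105 reads a library, and RPKM values do not show how reads of near-identical paralogs were assigned.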
